A study of Citrus maxima and Citrus sinensis with 8 samples.

Results

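Leaves of Citrus grandis (pummelo, given as Citrus maxima in the organism label) were compared after 18 weeks of aluminium with control leaves. The libraries used are the 4 of this species among 8 in the series, 2 per group, and each is a pool of leaves from 5 seedlings grown 1 to a pot. All 4 are seedling leaves, no other treatment or genetic alteration is given in the labels, and the aluminium dose is not stated in them. The other 4 libraries are of Citrus sinensis (sweet orange) in the same layout, and they enter here only where the species are set side by side. The members were chosen by species and treatment label, not by any measured value, and the genes described are the 15757 of 30297 listed IDs with a mean of at least 1 FPKM over the 4 C. grandis libraries.

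Aluminium dissolves as a toxic ion in acid soils. It first damages root tips, and shoots respond to what reaches them and to poorer uptake of water and nutrients. Leaves under long exposure are known for reduced photosynthesis, oxidative stress and shifts in mineral nutrients. C. grandis is regarded as the more sensitive of these species. The files pair no gene ID with a name, and no annotation or sequence was used here, so genes are described by ID, level, size of change, length and place in the ID numbering, and no function is given to any ID. For the same reason the leaf label could not be checked against marker genes.

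Library totals lay between 16443205 and 18755844 reads, and 15509 to 15546 IDs reached 1 FPKM in each library. FPKM, fragments per kilobase of gene scaled to a fixed total of fragments per library, is the unit of every level below. The replicates of the groups differed unequally. Over genes with a group mean of at least 5 FPKM, the median absolute log2 difference between replicates was 0.238 in control and 0.058 in aluminium leaves. A 2-fold or larger gap separated the control pools in 404 of 11689 such genes and the aluminium pools in 9 of 11481. Against counting noise alone, which gives a mean chi-square of 1 per gene, the mean was 58.87 for the control pair and 1.77 for the aluminium pair over genes with at least 20 reads. The corresponding means in C. sinensis were 9.69 in control and 82.72 in aluminium leaves. The aluminium libraries of C. grandis were kept as 2 replicates because the labels describe separate pools. They differed by only slightly more than counting noise, however, and these values do not show whether they stand for separate pools or for repeat libraries of 1 pool. Results with them counted as 1 sample are therefore given beside the calls.

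**Figure D1:**
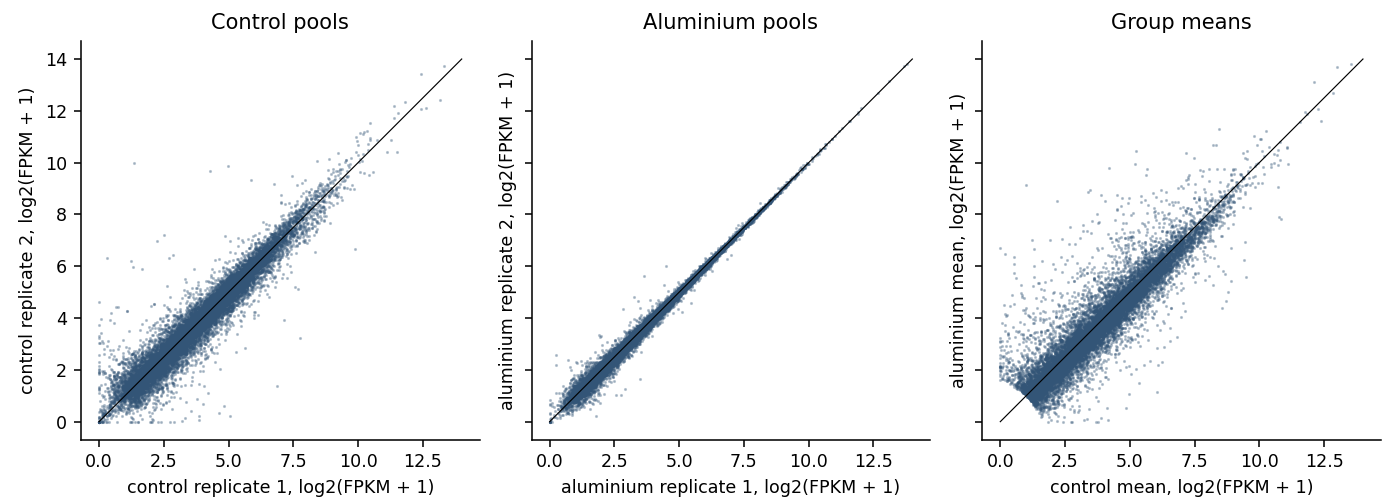
Levels of the 15757 genes tested on the log2(FPKM + 1) scale, with 1 point per gene and the line of equal values: control replicate 2 against 1, aluminium replicate 2 against 1, and aluminium mean against control mean. The aluminium pools hug the line, with a median absolute difference of 0.058 at 5 FPKM and above, while the control pools scatter around it with a median of 0.238.

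The comparison of aluminium with control leaves asked which transcripts differed after the exposure in this species. Of the 15757 genes tested, 1318 rose (8.36%) and 1380 fell (8.76%), together 2698 genes or 17.1%. These calls are at a limma adjusted p below 0.05 on log2(FPKM + 1), a scale that understates the change of low genes. In leaf tissue sequenced in bulk, fewer cells of a type and less RNA per cell cannot be told apart. The rises were larger than the falls. Upward calls had a median log2 fold change of 1.21 and downward calls one of -0.82, beside -0.10 over all genes tested. Upward calls of at least 2-fold numbered 813 and downward ones 483, together 8.22% of the genes tested. At least 8-fold changes numbered 98 upward and 17 downward, and at least 16-fold changes 44 and 2. The smallest absolute log2 change that was called was 0.39.

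The counts rest on treating the aluminium libraries as separate replicates. Counted as 1 sample, they left 170 genes higher and 20 lower, all of them among the 2698. These 190 genes had large changes, with a median log2 fold change of 2.95 upward and -2.82 downward, and none under 1.91 in absolute value. Their median levels went from 6.02 FPKM in control to 67.2 FPKM with aluminium for the 170, and from 65.2 to 9.75 FPKM for the 20. In every one of the 15 alternative analyses, 91 genes were called higher and 16 lower. Without control replicate 1 or 2 the calls numbered 3476 higher and 5345 lower, or 3900 higher and 5721 lower, since the wide control pair then no longer enters the spread.

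**Figure D2:**
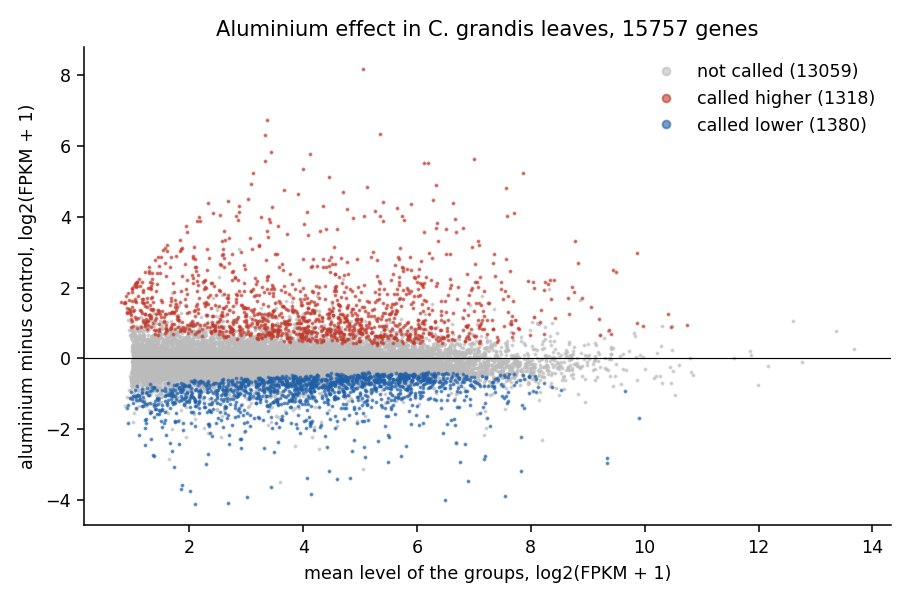
Aluminium minus control on the log2(FPKM + 1) scale against the mean level of both groups, with 1 point per gene and colours for the 1318 genes called higher, the 1380 called lower and the 13059 not called. Points above 4 on the log2 scale are found upward in 44 called genes, against 2 called genes below -4.

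All 2698 called genes had both aluminium libraries on 1 side of both control libraries. That separation alone was far more common than a call, with 3994 genes higher, 6486 lower and 5277 overlapping, beside the 17.1% called. It thus held for 10480 of the 15757 genes tested. With 2 libraries per group it also arises by chance in a large share of genes, more so where 1 pair is nearly alike. The separation is therefore no count of genes that responded. For 10394 of the 13059, the 95% interval of the log2 difference lay within a 2-fold change either way. For the other 2665 the interval, which is not adjusted over genes, reached a 2-fold change. Among these were 272 genes with an estimate of at least 2-fold, 103 upward and 169 downward. Their control pools stood a median of 1.15 apart on the log2 scale, against 0.27 in the called genes of at least 2-fold. The split by the call favours this contrast, since a wide control gap enters the spread.

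The genes with the largest gain in FPKM among those called were Cs8g18470 and Cs2g13910. Cs8g18470 stood at 233 and 453 FPKM in the control pools and at 2484 and 2588 FPKM in the aluminium pools. Both aluminium values were far above both controls, which differed from each other by nearly the size of the lower one. It rose by 2.96 on the log2 scale (standard error 0.35, limma adjusted p = 0.0122), from a mean of 343 ± 156 to 2536 ± 73.4 FPKM (SD, n = 2), and its rank by level went from 202 to 10 among the genes tested. With the aluminium libraries counted as 1 the adjusted p from limma was 0.118, so the call ended.

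Cs2g13910 stood at 29.4 and 45.0 FPKM in control and at 1403 and 1419 FPKM with aluminium. The groups were far apart beside the gap within either of them. This was a rise of 5.24 on the log2 scale (standard error 0.22, limma adjusted p = 0.00129). In reads it went from 2330 in both controls together to 84279 with aluminium, which per library total is 37.4-fold with a 95% counting interval of 35.9 to 39.0. With the gaps between pools included, the 95% interval of the log2 change was 4.65 to 5.83. It rose from rank 3534 to rank 23 by level, and its share of the reads from 0.00516% and 0.0079% in the control pools to 0.246% and 0.249% in the aluminium pools. It was called in all 15 alternatives, with limma adjusted p between 1.45e-11 and 0.0222.

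The largest losses in FPKM among called genes were those of orange1.1t00647 and Cs8g13740. orange1.1t00647 stood at 1290 and 2367 FPKM in control and at 236 and 216 FPKM with aluminium. It was the 13th gene by level in control leaves and the 359th with aluminium. The change was -2.95 on the log2 scale (standard error 0.32, limma adjusted p = 0.00991), and per library total the control leaves held 8.25 times as many reads, with a 95% counting interval of 8.08 to 8.41. The counting interval leaves out the gap between pools, which the 95% interval of the log2 change, -3.80 to -2.09, includes.

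Cs8g13740 stood at 1210 and 2295 FPKM in control and at 249 and 230 FPKM with aluminium. As in the gene before it, control replicate 2 was the higher control and both aluminium pools lay well below. The change on the log2 scale was -2.80 (standard error 0.34, limma adjusted p = 0.0125), with its rank going from 16 to 337. With the aluminium libraries counted as 1, the limma adjusted p was 0.126 for orange1.1t00647 and 0.143 for Cs8g13740, and neither was called.

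Among genes whose groups do not overlap, 3 that were not called had a larger gain in mean FPKM than any called gene. They are singled out here after their values were seen. Cs6g11770 and Cs1g07330 are short, at 237 and 207 bp, and FPKM divides reads by length. Cs6g11770 stood at 5537 and 10979 FPKM in control and 13068 and 13517 FPKM with aluminium. Both aluminium pools were above both controls, but control replicate 2 lay close to them and far above control replicate 1, and the log2 difference of 0.77 had a 95% interval of -0.63 to 2.17 (limma adjusted p = 0.358). Cs2g15270 stood at 3575 and 5185 FPKM in control and 8783 and 9027 FPKM with aluminium, a log2 difference of 1.05 with a 95% interval of 0.05 to 2.04 before adjustment (limma adjusted p = 0.126). Cs1g07330, the most abundant transcript in both groups, stood at 10322 and 13757 FPKM in control and 14364 and 14396 FPKM with aluminium. Its log2 difference of 0.27 had a 95% interval of -1.02 to 1.56 (limma adjusted p = 0.728), so neither a 2-fold rise nor a 2-fold fall lay outside what the pools allow.

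**Figure D3:**
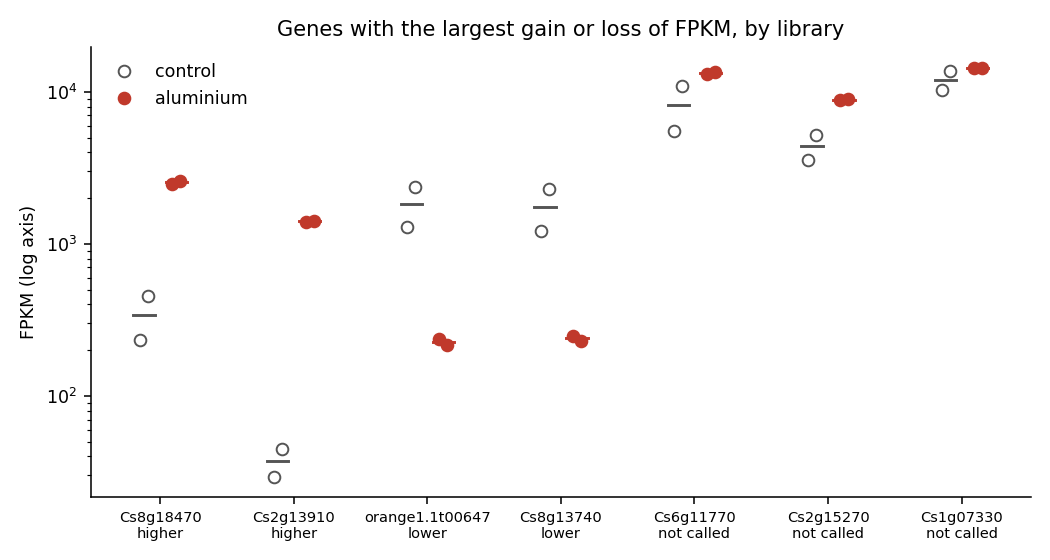
FPKM on a log axis for the 7 named genes in each of the 4 libraries, open circles for control, filled for aluminium, with a bar at each group mean. On the log axis, the groups of the 4 called genes are separated by more than the pools within them. In Cs6g11770 and Cs1g07330 control replicate 2 lies close to the aluminium pools and control replicate 1 well below it.

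The rises and falls were also weighed by how much of the leaf's sequenced RNA they took up. The genes called higher held 6.01% and 6.25% of the reads in the control pools and 17.9% in each aluminium pool. The genes called lower went the other way, from 11.7% and 12.1% to 6.20% and 6.16%. These genes were picked by their change, so the shares describe its extent and test nothing. Between the group means, 17.2% of the reads changed from one gene to another. For single libraries this figure was 18.1% to 18.6% between a control and an aluminium pool, 12.4% between the control pools and 1.84% between the aluminium pools. The gain was concentrated. Of 8873 genes with a gain, 135 carried 50% of it, while 495 of 12487 genes carried 50% of the loss. Called genes held 68.5% of the gain and 33.2% of the loss.

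The genes were also put in classes by level. The mean behind the classes includes the aluminium libraries, so a gene can enter a high class by rising and a low one by falling, and the shares are a description only. By the mean over all 4 libraries, 6.45% of the 4064 genes between 1 and 5 FPKM were called higher and 5.88% lower. The shares were 7.47% and 8.28% of the 5703 genes between 5 and 20 FPKM, and 9.79% and 11.4% of the 4860 genes between 20 and 100 FPKM. Among the 1025 genes between 100 and 500 FPKM, 13.1% were called higher and 10.6% lower. At 500 FPKM and over, 20 of 105 genes were called higher (19.0%) and 4 lower (3.81%). Counting error moves with level too. The median absolute log2 difference between the aluminium pools went from 0.138 in the lowest class to 0.028 in the highest, and that between the control pools was 0.287 in the lowest, 0.229 between 20 and 100 FPKM and 0.414 in the highest. The part of this precision and of the classing itself in the shares was not tested.

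**Figure D4:**
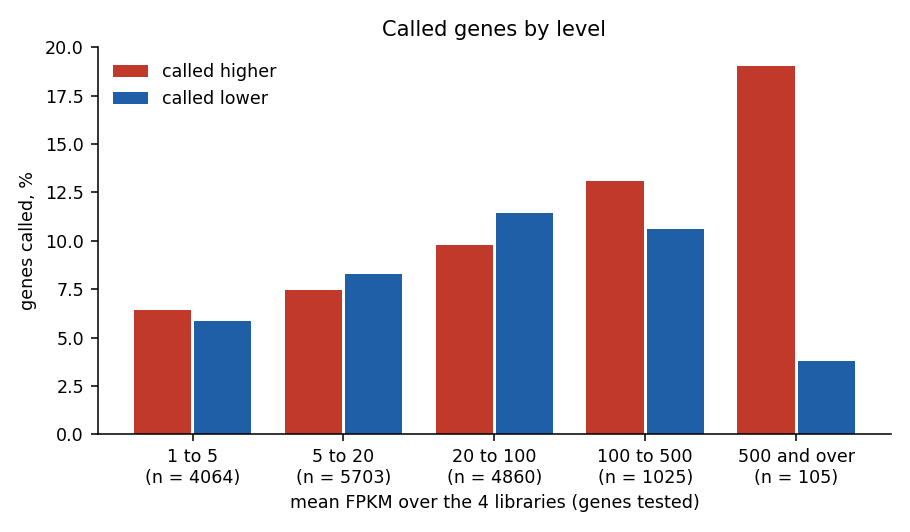
Percentage of genes called higher and lower in 5 classes of mean FPKM over the 4 libraries, with the number of genes tested under each. The mean includes the change itself. Calls upward go from 6.45% in the lowest class to 19.0% in the highest, while calls downward peak at 11.4% between 20 and 100 FPKM and stand at 3.81% in the 105 most abundant genes.

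Some genes were near silent in 1 group. Fewer than 3 reads in each control library and at least 1 FPKM in both aluminium libraries were found for 47 genes, and 25 genes showed the reverse. Of the 47, 17 were below the level tested. The others reached that level through the aluminium libraries alone, so their calls are not counted here. For all 47 the median level with aluminium was 2.60 FPKM, and 2 of them reached 10 FPKM, with the highest at 104 FPKM. No read at all was found in control for 26 of them, which were at least 4.48-fold to 675-fold higher with aluminium when 3 reads over both control libraries are taken as the floor. Of the 25, 7 were below the level tested, and the others reached it through the control libraries alone. For all 25 the median level in control was 3.58 FPKM and the highest 16.7 FPKM. The 7 of them without any read with aluminium were at least 11.9-fold to 226-fold lower, with the floor set at 3 reads over both aluminium libraries. Most of the genes switched in this sense were therefore weakly expressed where they were on, and the floors cover counting error only.

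Gene length, as recovered from the deposited FPKM, differed little between called and other genes. The median length was 1680 bp in upward calls, 1668 bp in downward calls and 1756 bp in genes not called. The genes were put in 4 classes of nearly equal size by length. In the shortest class, up to 1190 bp, 8.80% were called higher and 8.34% lower. From 1191 to 1740 bp the shares were 8.76% and 10.5%, and from 1741 to 2419 bp 9.20% and 9.27%. In the longest class, from 2420 bp, they were 6.68% and 6.96%. The median log2 difference went from -0.06 in the shortest class to -0.11 in the longest.

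Calls were spread over all 9 numbered ID series, Cs1g to Cs9g. Between 16.3% (Cs2g) and 18.6% (Cs3g) of the tested genes of a series were called. The balance varied more, with 10.4% higher and 8.14% lower in Cs3g against 6.72% higher and 10.6% lower in Cs9g. The series orange1.1t had 6.17% higher and 8.82% lower among 2189 genes tested, and 36.4% of its listed IDs reached the level tested, against 52.7% to 58.6% in the numbered series. The 475 tested IDs with another prefix had the highest share upward, 12.2%, with 7.58% lower.

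Genes next to a called gene in the numbering were called the same way more often than all genes, though most were not. Of the 8495 pairs of consecutive IDs that were both tested, 123 were both called higher and 94 both lower, while 85 were called in opposite directions. The neighbours of genes called higher were called higher in 17.1% of cases and lower in 5.91%, beside 8.59% and 8.79% over all 13093 tested genes of the 9 series. The neighbours of genes called lower were called lower in 12.8% of cases and higher in 5.81%. Reads of near-identical or overlapping genes cannot be told apart in these files, and their part in the pairs was not tested.

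**Figure D5:**
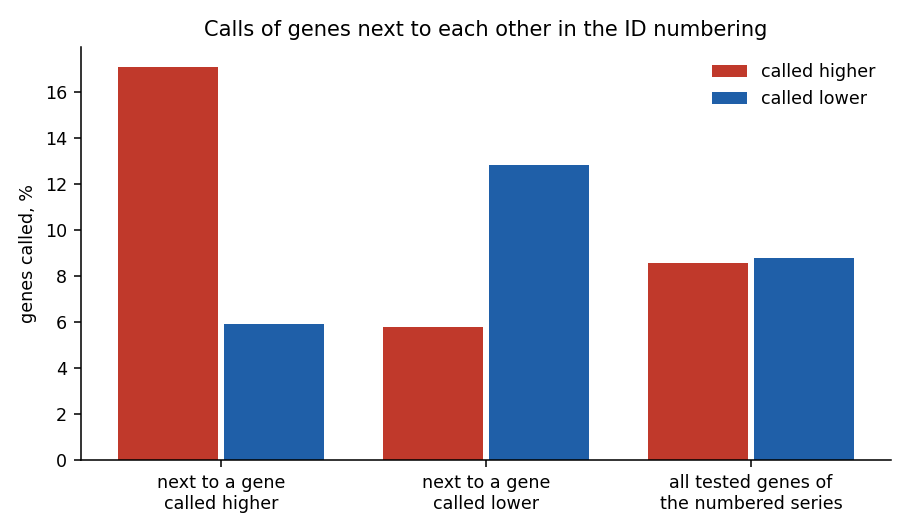
Percentage of tested genes called higher and lower among the neighbours, in the ID numbering, of genes called higher and of genes called lower, and among all 13093 tested genes of the 9 series. Neighbours share the direction of the gene beside them in 17.1% and 12.8% of cases, against 8.59% and 8.79% over all.

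Runs of at least 3 consecutive IDs called the same way numbered 13 upward, holding 43 genes, and 7 downward, holding 26. The longest was a run of 6 in Cs9g that fell. The FPKM of its genes summed to 87.2 and 91.8 in the control pools and to 22.8 and 23.0 in the aluminium pools. All 6 genes fell at least 2-fold, with log2 fold changes from -2.03 to -1.07 and limma adjusted p of at most 0.0407. A run of 4 in Cs6g rose from a sum of 110 and 90.4 FPKM in control to 1003 and 1006 FPKM with aluminium. Here the changes were uneven, with log2 fold changes from 0.83 to 4.09, and a single gene reached 864 FPKM with aluminium. A run of 4 in Cs3g rose from 9.40 and 13.1 to 74.8 and 75.2 FPKM, with log2 fold changes from 1.16 to 3.74 and each of its genes under 7.27 FPKM in control. Another run of 4, in Cs8g, fell from 187 and 270 to 80.4 and 85.7 FPKM.

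The named genes were also set beside C. sinensis, with the difference of the aluminium effects tested in a limma fit of all 8 libraries. That test called 401 of the 15757 genes (2.54%). It took the C. grandis aluminium libraries as 2 replicates and was not repeated with them counted as 1 sample. The named genes were picked for their large change in C. grandis, which by itself favours a larger effect there than in C. sinensis. Cs8g18470 stood at 7090 and 7189 FPKM in C. sinensis control and at 5348 and 5714 FPKM in its aluminium leaves. Its FPKM was thus higher in C. sinensis controls than in any C. grandis library. Levels were not tested between the species, and how well reads of each species matched the shared IDs is not stated. The effect of aluminium on Cs8g18470 in C. grandis was higher by 3.33 on the log2 scale (95% interval 2.25 to 4.40, limma adjusted p = 0.022). Cs8g13740 stood at 114 and 153 FPKM in C. sinensis control and at 132 and 135 FPKM with aluminium, and the effects differed by -2.81 (95% interval -3.81 to -1.81, limma adjusted p = 0.0275). For orange1.1t00647, with 10.03 and 16.3 FPKM in C. sinensis control and 10.3 and 31.7 FPKM with aluminium, the difference of -3.43 missed the threshold (95% interval -5.19 to -1.66, limma adjusted p = 0.0666). Cs2g13910 was at 4.38 and 9.10 FPKM in C. sinensis control and at 224 and 480 FPKM with aluminium. Its effects differed by -0.24, with a 95% interval of -1.70 to 1.21 (limma adjusted p = 0.852), which leaves room for a 2-fold difference either way.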

How the data were processed

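Levels are FPKM per gene and library as deposited by the authors, per the file headers. Bowtie, TopHat2, HTSeq and edgeR 1.18.0 are named in the submitters' processing notes with no role given, with genome build, annotation and strandedness not given in the sources used here. Reads of near-identical or overlapping genes may therefore be shared. Whole reads, lengths and totals were recovered from the ratios of FPKM values for 22311 of 23370 IDs above 0. All lay within 0.01 of a whole number. IDs were accepted by their closeness to whole numbers, so this is no check of the recovery. Intervals from reads cover counting error only. The 4 C. grandis libraries were fitted on the log2(FPKM + 1) scale with limma 3.58.1 (R 4.3.3), with a trend in the spread, 2 residual degrees of freedom (2.53 added by moderation), two-sided p-values and Benjamini-Hochberg adjustment over the 15757 genes tested. The filter removed 14540 IDs, of which 8406 were at 0 in all 4 libraries. Both steps were tested on simulated data. The simulated libraries for the fit had the same spread in both groups, unlike the real ones, so the effect of unequal spread on the calls was not tested. Without gene names, the named genes were the called ones with the 2 largest gains and 2 largest losses of FPKM and groups that do not overlap. None of 52 lists of gene functions could be matched to IDs. The samples, lists and rules were chosen with earlier results of these data known. The labels give no batch, and describe the replicates as separate pools whose RNA was extracted independently.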

Additional observations from a re-analysis of the deposited data

Results flagged for a closer look

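The aluminium effect differed between the species, by the limma test of the difference, in 2 of the 7 named genes, beside 2.54% of all genes tested. These genes were picked for large differences in FPKM in C. grandis, which favours a larger effect there. The effect in C. grandis minus that in C. sinensis was 3.33 on the log2 scale for Cs8g18470 and -2.81 for Cs8g13740. In both genes every C. grandis aluminium library lay beyond both of its controls. For Cs8g18470 the C. sinensis aluminium libraries, at 5348 and 5714 FPKM, lay below both controls, at 7090 and 7189 FPKM, opposite to the rise in C. grandis. For Cs8g13740 the C. sinensis libraries lay within 114 to 153 FPKM, with both aluminium libraries between the controls.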

How the results depend on the processing

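With the aluminium libraries counted as 1 sample, limma called 170 genes higher, 20 lower and 190 with at least a 2-fold change. Leaving out 1 library gave 169 to 3900 calls higher, 22 to 5721 lower and 191 to 1782 of at least 2-fold, the low ends without an aluminium library and the high ends without a control library. A group left with 1 library is then assumed to vary like the other. The other 10 alternatives stayed within 1.5 times the main counts, with 1111 to 1494 genes higher, 1036 to 1705 lower and 962 to 1519 of at least 2-fold. Of these, the fit of all 8 libraries shared 889 of the 1318 genes called higher and 1176 of the 1380 called lower. The replicate block, which takes the replicate numbers as pairs, gave 1494 and 1655 calls. Deviations of same-numbered libraries correlated by 0.024 across genes. The aluminium pair differed by only slightly more than counting noise, so this correlation cannot show whether the numbers pair libraries. Higher calls made up 48.9% of calls as deposited and 57.6% after median centring, which moved the median of all genes from -0.10 to -0.04. Cs8g18470, orange1.1t00647 and Cs8g13740 kept their call in 12 of 15 alternatives each, and Cs2g13910 in 15. In all 3 that ended the call, the aluminium group held 1 sample, either with its libraries counted as 1 or with 1 left out. The other 12 kept both aluminium libraries as replicates. Cs6g11770 passed the threshold in 2, Cs2g15270 in 4 and Cs1g07330 in 1. Neighbours of genes called higher were called higher more often than all genes in all 15 alternatives (4.42% against 1.12% with the aluminium libraries as 1). Neighbours of genes called lower were called lower more often in 12 and never in the 3 with too few falls (0 neighbours). Counts per gene list could not be recomputed, since no list was matched. With 2 pools per group, the median half-width of the 95% interval was 0.40 on the log2 scale.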

Other observations

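A set of genes stood far apart between the control pools of C. grandis. At least an 8-fold gap on the log2(FPKM + 1) scale separated these pools in 40 of the 15757 genes tested. Of the 40, 26 were higher in replicate 2 and 14 in replicate 1. None of them was called for aluminium, beside 17.1% of all genes tested. Picking genes by a wide control gap works against a call, since that gap enters the spread. No gene was as far apart between the aluminium pools, where the largest gap was 2.31 on the log2 scale. A gap of at least 4-fold was seen in 95 genes between control pools and in 1 between aluminium pools. In 30 of the 40 genes both aluminium libraries lay between the control pools, which picking genes by a wide control gap favours. Cs3g01140, chosen after its values were seen, stood at 0.235 and 78.9 FPKM in the control pools, from 6 and 2294 reads, and at 19.2 and 19.8 FPKM in the aluminium pools, while C. sinensis stood between 425 and 768 FPKM. Cs5g07854, chosen in the same way, showed the reverse, with 117 and 1.605 FPKM in the control pools, from 2041 and 32 reads, and 34.3 and 26.7 FPKM in the aluminium pools. In C. sinensis this gene stood at 14.6 and 2.53 FPKM in the control pools and at 18.8 and 11.3 FPKM in the aluminium pools, so its control pools differed there too. What sets the control pools apart in these genes was not tested.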
